A study of Homo sapiens with 4 samples.

Results

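The genes described here are 40 interferon-stimulated genes, taken as a list of symbols, and all 40 were found among the 18134 genes of the expression table. They include IFI16, a sensor of foreign or misplaced DNA, and their transcripts are known to rise when a cell responds to interferon. The libraries came from PC9, an established human lung adenocarcinoma cell line, in which a stable lentiviral short hairpin RNA was kept under puromycin selection in both groups. In the shTPX2 group the hairpin targeted TPX2, a microtubule-associated protein of the mitotic spindle, and in the shNC group it was the negative control hairpin. Each group had 2 libraries of polyadenylated RNA, labelled 1 and 2. The methods describe the shTPX2 line as a partial depletion, made with 1 hairpin, so an effect of the hairpin on other transcripts and an effect of TPX2 cannot be told apart. Where a pair of values is given for a group, library 1 comes first. The labels do not say whether the libraries of a group came from separate cultures, so the p-values measure only the spread between these libraries, which may be technical. The comparison asks how the transcriptome differed after TPX2 depletion.

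Type I and type III interferons bind receptors at the cell surface, whose JAK1 and TYK2 kinases phosphorylate transcription factors such as STAT2. With IRF9 these form a complex that binds the interferon-stimulated response element in promoters and switches on a large set of antiviral genes. The products of these genes sense viral nucleic acid, block viral entry, translation and release, and adjust the strength of the response itself. In epithelial tumour cells part of the set is often active at a low level without infection.

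Expected counts, which are estimated reads per gene, summed to 20906441 to 21972583 per library, and 38 of the 40 genes were abundant enough to be tested. Levels are given as TPM, which scales reads by gene length and by library. TPX2 itself stood at 55.0 and 111.9 TPM in the shNC libraries and at 43.4 and 43.8 TPM in the shTPX2 libraries. The groups did not overlap, yet the fitted log2 fold change of -0.81 (SE 0.32) did not pass the edgeR quasi-likelihood test (unadjusted p = 0.0403, Benjamini-Hochberg adjusted p = 0.618) and moved to -0.24 without shNC 2. By limma voom it was -0.73 with an unadjusted p of 0.0592, which met the study's criteria given below. The 6 epithelial markers summed to 20013 to 27561 TPM. Of the lung adenocarcinoma markers EGFR stood at 78.4 to 169.1 TPM, while NKX2-1, NAPSA and SFTPB did not exceed 1.67 TPM in any library. The leukocyte markers PTPRC and CD3E did not exceed 0.69 TPM and LYZ did not exceed 2.64 TPM, while CD68, a lysosomal protein, stood at 125.6 and 220.4 TPM in the shNC libraries and 191.1 and 168.1 in the shTPX2 libraries. The 4 fibroblast markers summed to 9.16 to 12.4 TPM in shNC and 5.90 to 8.26 TPM in shTPX2. Almost all of this was COL1A1, at 8.64 and 11.99 TPM in the shNC libraries and 5.72 and 8.04 in the shTPX2 libraries. The other 3 lay under 1 TPM in every library. The 3 endothelial markers summed to 19.9 to 32.6 TPM in shNC and 31.1 to 36.5 TPM in shTPX2. Among the latter CDH5 stood at 14.4 and 18.1 TPM in the shNC libraries and 26.7 and 30.5 in the shTPX2 libraries (log2 fold change 0.94, SE 0.18, edgeR adjusted p = 0.439, DESeq2 adjusted p = 0.0184), PECAM1 at 5.38 and 14.4 TPM and 4.20 and 5.92, and VWF did not exceed 0.17 TPM. The part of these markers in the results was not tested. In bulk RNA, fewer cells that express a gene and less RNA of it per cell cannot be told apart.

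IFI16 was the gene of the set with the largest difference between the groups. It stood at 3.65 TPM in shNC 1 and 3.81 in shNC 2, against 0.43 in shTPX2 1 and 0.31 in shTPX2 2. The libraries of each group lay close together and the groups were far apart. The table also holds a mean per group computed by the authors, which is not the mean of these libraries. There IFI16 had 59.1 TPM for shNC and 120.7 TPM for shTPX2. Which libraries entered those means is not given, so their direction cannot be set against that of the libraries here. In reads, the levels per library were 103 (95% exact Poisson interval 84.1 to 124.9) and 108 (88.6 to 130.4) counts in shNC. In shTPX2 they were 13 (6.92 to 22.2) and 9 (4.12 to 17.1), and the intervals cover counting error only. As CPM, which scales reads by library alone, IFI16 stood at 4.80 ± 0.0985 in shNC and 0.525 ± 0.130 in shTPX2 (mean ± SD, n = 2 each), which is 9.13-fold lower. The log2 fold change was -3.18 (SE 0.43). It ranked 10 of 14048 tested genes by p and 18 from the lowest fold change.

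Whether this difference passed a threshold depended on the test. The edgeR quasi-likelihood test gave an unadjusted p of 0.000232 and an adjusted p of 0.325, and limma voom gave 0.00022 and 0.299. DESeq2 gave an adjusted p of 3.74e-05. Across 6 other settings of normalization, filter and test the adjusted p for IFI16 ran from 3.74e-05 to 0.525, while its log2 fold change stayed between -3.25 and -3.15. Leaving out each library in turn gave -3.44 to -2.94. An exact permutation test of 2 libraries against 2 cannot go below p = 0.333.

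IFI16 lies on chromosome 1, chr1:158999976-159055151 in GRCh38.p14, in a cluster of genes of the PYHIN family, whose proteins join a pyrin domain to a DNA-binding HIN domain. PYHIN1 lies before it, and the end of AIM2, the DNA sensor of the inflammasome, overlaps its last bases. PYDC5, which overlaps its start, was not analysed here. Whether counting used strand is not given in the sources used here, so reads in the overlap cannot be told apart. AIM2 had 1, 0, 3 and 1 counts in shNC 1, shNC 2, shTPX2 1 and shTPX2 2. PYHIN1 stood at 0.97, 2.04, 1.17 and 0.77 TPM in the same order, and its groups overlapped (log2 fold change -0.45, SE 0.56, edgeR adjusted p = 0.869). None of the 5505 stretches of 75 bases in the IFI16 transcripts of GENCODE release 29 occurred in a transcript of another gene.

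**Figure D1:**
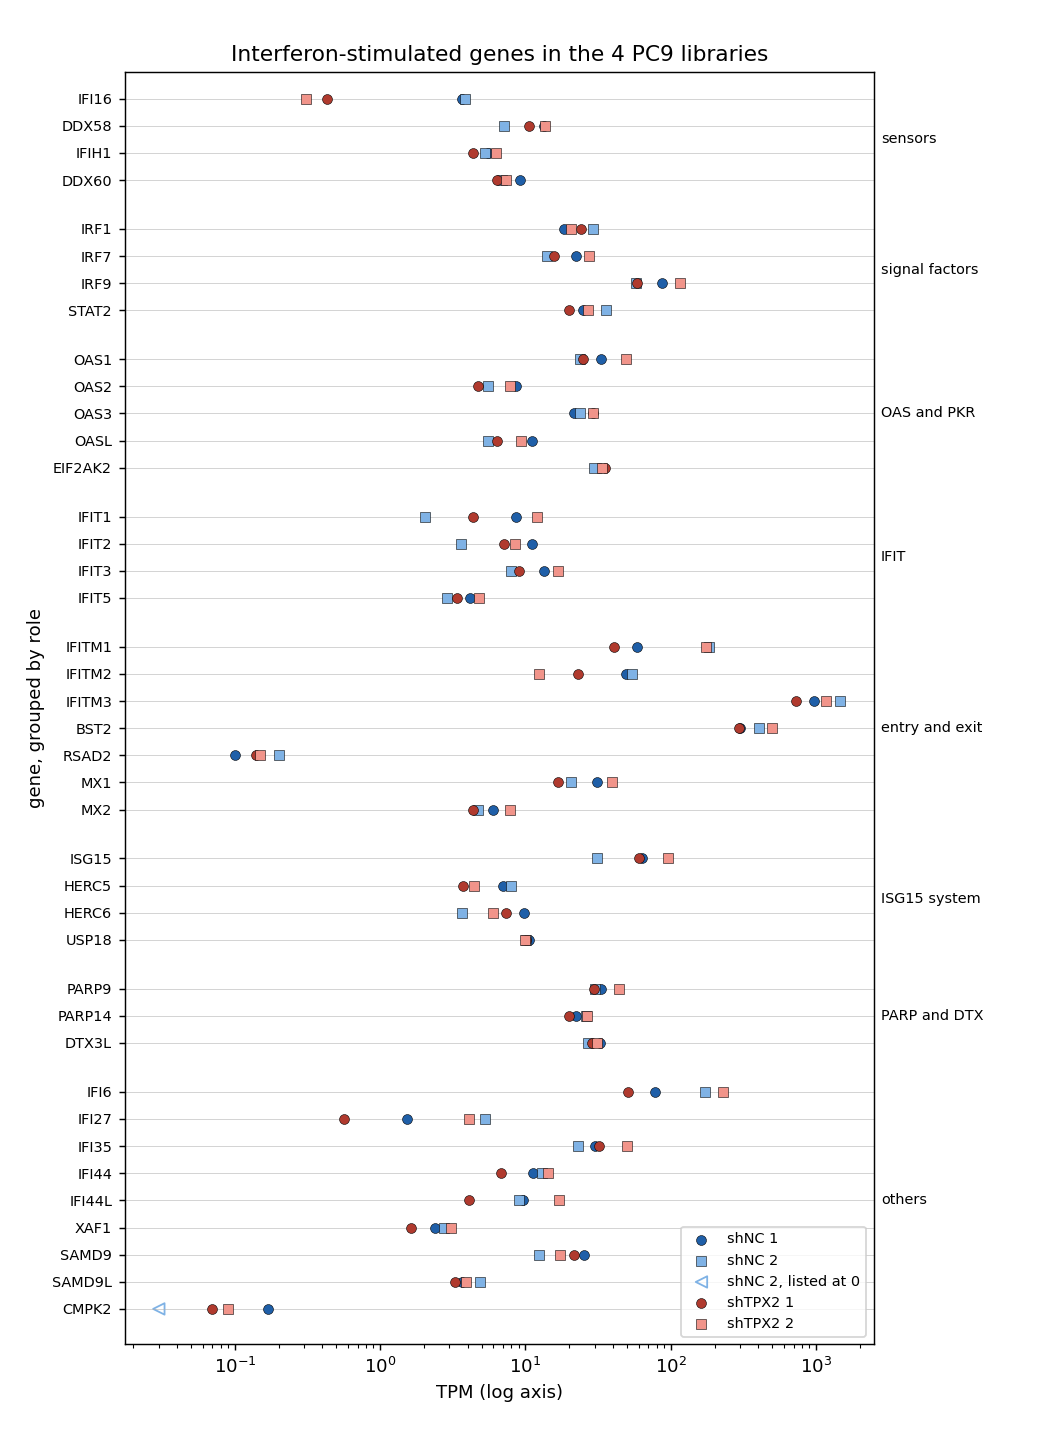
TPM of the 40 interferon-stimulated genes (rows, grouped by role) in each library on a log axis, blue for shNC and red for shTPX2, with circles for library 1 and squares for library 2. IFI16 in the top row is the gene whose red points, 0.43 and 0.31, stand far to the left of its blue points, 3.65 and 3.81, while in most rows the colours are mixed.

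The promoters were searched for a sequence feature, which was found for 22 genes and not for 11. IFI16, OAS1, STAT2 and IRF9 were among the 11. RefSeq promoter windows of 300 bases, from 250 before to 50 after an annotated start, were found for 33 of the 40 genes. They were searched on both strands for GAAANNGAAA, the core of the interferon-stimulated response element, where N is any base. The motif was present in 26 of 44 member windows (59.1%), belonging to 22 genes, against 3.57% of all 35116 RefSeq windows and 3.03% of the 20283 windows of genes in the expression table. The stretches below are those of genes named in the results, with the 10 bases of a single match in capitals, so that the element can be seen beside the values. In ISG15 another match overlaps the marked bases, and part of it is in lower case. On the reverse strand it reads TTTCNNTTTC.
ISG15, chr1:1013380-1013409, plus strand, 97 bases before the start: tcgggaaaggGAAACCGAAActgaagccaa
OAS3, chr12:112938321-112938350, plus strand, 133 bases before the start: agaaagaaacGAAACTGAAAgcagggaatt
HERC5, chr4:88457035-88457064, plus strand, 64 bases before the start, match on the reverse strand: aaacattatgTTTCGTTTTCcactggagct
IFIT1, chr10:89392510-89392539, plus strand, 93 bases before the start, match on the reverse strand: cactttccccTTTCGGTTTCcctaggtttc
IFITM3, chr11:320876-320905, minus strand, 25 bases before the start: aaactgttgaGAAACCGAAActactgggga

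IFI16 had 2 such windows, both upstream of starts that lie inside the span of the gene, and 0 of the 2 held the motif. The 250 bases before the second of these starts are shown because they are the counterpart of the stretches above. They are in lower case throughout since they hold no exact match. They do hold 2 GAAA repeats with a shorter gap than that of the motif, which the search did not count.
IFI16, chr1:159009657-159009906, plus strand: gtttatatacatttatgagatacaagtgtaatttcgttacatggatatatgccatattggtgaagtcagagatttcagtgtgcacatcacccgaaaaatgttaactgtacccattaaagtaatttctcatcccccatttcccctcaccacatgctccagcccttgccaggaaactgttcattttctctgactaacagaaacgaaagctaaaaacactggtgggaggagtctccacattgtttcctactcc
A missing match says only that these letters are not in these windows. Among the tested members with a window, the 21 with the motif had a median log2 fold change of 0.15 (range -0.76 to 0.83) and the 10 without it, IFI16 among them, a median of 0.09 (range -3.18 to 0.76).

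The other 37 tested genes did not share the low level of IFI16 in shTPX2. Of these, 27 had a log2 fold change above 0 and 10 below, with a median of 0.14 and a range from -1.41 to 0.83, and 32 lay within 0.5 of 0 on the log2 scale. Over all 14048 tested genes the median was -0.01 and 48.9% lay above 0. The median of the 37 genes rested on single libraries, since it was 0.47 without shTPX2 1 and -0.12 without shTPX2 2. The log2 fold change of IFI16 minus that median was -3.31.

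Counts of genes past a threshold were as follows. At an adjusted p under 0.05, edgeR and limma voom each called 0 members (edgeR called 0% of all tested genes), and at an unadjusted p under 0.05 edgeR had 2 higher in shTPX2 (3.13% of all tested genes) and 3 lower (4.90%). DESeq2 called IFI16 and IFITM2, where 0.790% of all genes were called. The study's criteria set a ceiling of 0.1 on the limma p and a floor of 0.3 on the log fold change, and were read here as an unadjusted p and a log2 fold change of either sign, which the methods do not spell out. There 3 members were higher (ISG15, IFI35 and OAS3), 3 were lower (IFI16, IFITM2 and HERC5) and 32 did not pass. Each 3 of 38 is 7.89%, against 6.24% of all tested genes higher and 7.99% lower, so the shares were near those of the whole table. The libraries of the groups did not overlap in 4 members higher in shTPX2 (19.4% of all genes) and 3 lower (20.2%). Both directions together made 18.4% of the members and 39.6% of all genes.

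**Figure D2:**
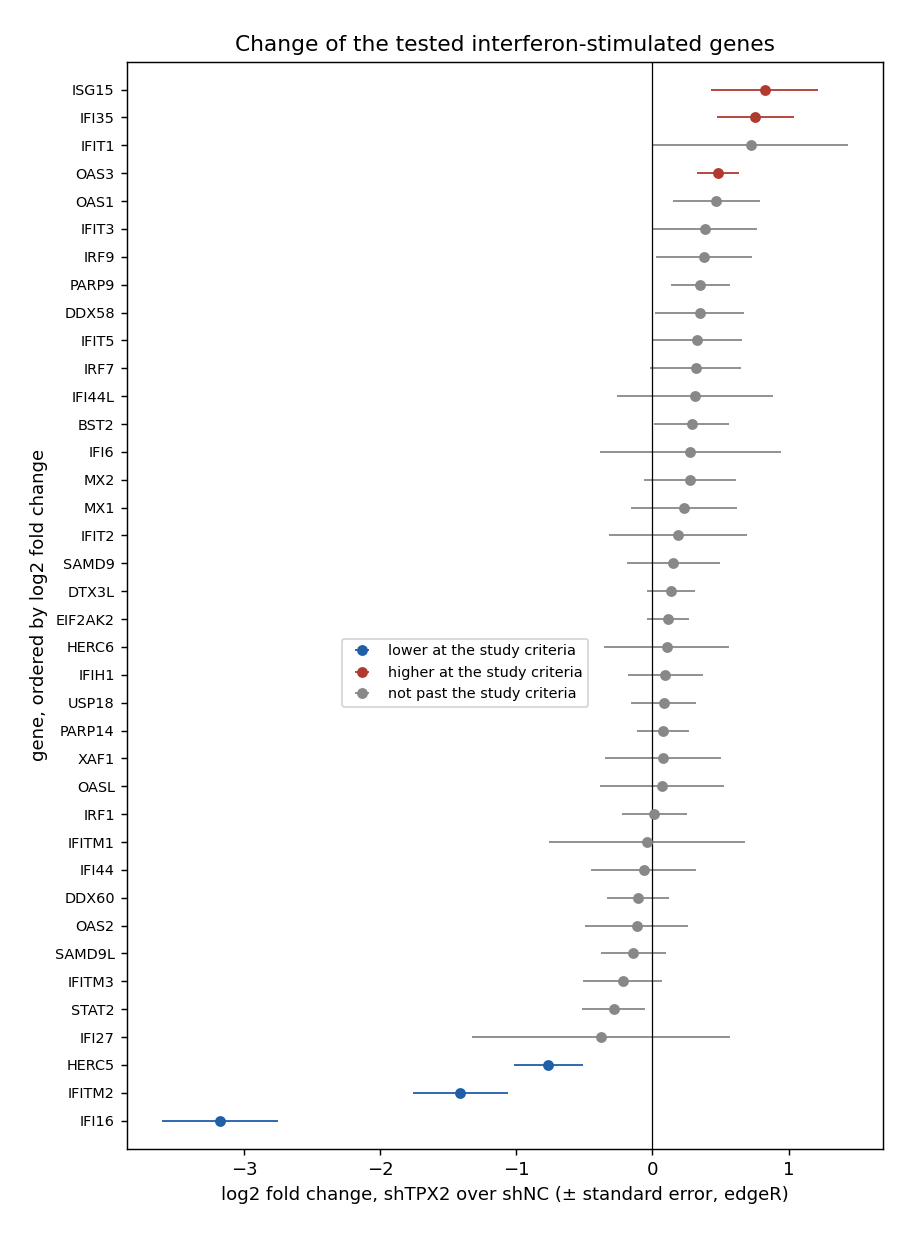
Log2 fold change of shTPX2 over shNC with its standard error (edgeR, 2 libraries per group) for the 38 tested genes, ordered by size. IFI16 at -3.18 stands apart at the lower end, followed by IFITM2 at -1.41 and HERC5 at -0.76 (blue), with ISG15, IFI35 and OAS3 (red) at the upper end.

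Among the nucleic acid sensors, IFI16 was the only one of 4 that passed the study's criteria. The RNA helicases DDX58 (now named RIGI, or RIG-I) and IFIH1 (MDA5), which recognise viral RNA in the cytoplasm, had log2 fold changes of 0.35 (SE 0.33) and 0.09 (SE 0.28). DDX60, a helicase linked to the RIG-I pathway, had -0.11 (SE 0.23). For each of these 3 genes the groups overlapped, and leaving out 1 library changed the sign.

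None of the 4 factors that carry or renew the signal passed. IRF9, the DNA-binding subunit that joins STAT2, stood at 87.3 and 57.5 TPM in the shNC libraries and 58.5 and 115.5 in the shTPX2 libraries, so shTPX2 2 was the highest library and the groups overlapped (log2 fold change 0.38, SE 0.35). Of the 75-base stretches in its transcripts, 40.9% also belong to an overlapping annotated transcript, AL136295.5, so its level is uncertain. STAT2 had -0.28 (SE 0.23), and IRF1 and IRF7, transcription factors of the interferon response, had 0.02 (SE 0.24) and 0.32 (SE 0.34).

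The OAS enzymes make 2′-5′ oligoadenylates that switch on RNase L, and EIF2AK2 (PKR) is a kinase that stops translation when it meets double-stranded RNA. OAS3, whose promoter element is shown above, stood at 21.7 and 23.8 TPM in the shNC libraries and 28.9 and 29.3 in the shTPX2 libraries. Both shTPX2 libraries lay above both shNC libraries, and the 2 libraries of each group were close. The log2 fold change was 0.48 (SE 0.16), past the study's criteria (voom unadjusted p = 0.0198) but not the edgeR test (adjusted p = 0.579), and it ran from 0.44 to 0.52 on leaving out each library. EIF2AK2 did not overlap either, at 0.12 (SE 0.16), and did not pass. OAS1, OAS2 and OASL, the last an OAS relative without that enzyme activity, had 0.47, -0.12 and 0.07, with groups that overlapped.

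All 4 IFIT genes, whose proteins bind viral RNA ends or block translation, had positive log2 fold changes, from 0.19 in IFIT2 to 0.72 in IFIT1, and none passed. The libraries of IFIT1 were far apart. It stood at 8.59 and 2.04 TPM in the shNC libraries and 4.34 and 11.99 in the shTPX2 libraries, so each group held a high and a low library. Its log2 fold change of 0.72 (SE 0.72) ran from -0.15 to 2.15 on leaving out 1 library. IFIT2 ran from -0.42 to 1.27, IFIT3 from -0.07 to 0.86 and IFIT5 from 0.07 to 0.65. The groups overlapped in all 4 genes. Of the IFIT2 stretches 6.89% also occur in AL353751.1.

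The proteins that block viral entry or exit included the most abundant members of the set. IFITM3, a membrane protein that hinders the fusion of incoming virus, stood at 967.8 and 1450 TPM in the shNC libraries and 730.6 and 1179 in the shTPX2 libraries. BST2 (tetherin), which holds budding virus at the cell surface, stood at 298.6 and 404.4 TPM in the shNC libraries and 294.1 and 495.1 in the shTPX2 libraries. IFITM1 stood at 58.4 and 183.1 TPM in the shNC libraries and 40.9 and 175.3 in the shTPX2 libraries. In all 3 genes library 2 was the higher of each group and the groups overlapped, with log2 fold changes of -0.22 (SE 0.29), 0.29 (SE 0.28) and -0.04 (SE 0.72).

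IFITM2, the neighbour of IFITM1 and IFITM3 on chromosome 11, was different. It stood at 49.2 and 54.3 TPM in the shNC libraries and 23.1 and 12.4 in the shTPX2 libraries, so the groups did not overlap. Its log2 fold change of -1.41 (SE 0.35) was next after that of IFI16 among the members, with an adjusted p of 0.567 in edgeR, 0.0363 in DESeq2 and a voom unadjusted p of 0.00386. Over the 7 other settings the adjusted p ran from 0.0363 in DESeq2 to 0.681 without a filter on low counts. Apart from DESeq2, these adjusted p values are from limma voom, not edgeR. Leaving out 1 library gave log2 fold changes of -1.95 to -1.01. The authors' mean for IFITM2, over libraries that are not named, was 131.0 TPM for shNC and 206.5 TPM for shTPX2. The 3 IFITM genes are near-identical in places: 24.2% of the IFITM2 stretches of 75 bases occur in other genes, most of them in IFITM1, and 29.8% of those of IFITM1 and 8.05% of those of IFITM3 do, so how the reads were shared out bears on each level.

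The remaining genes of this role did not pass. MX1 and MX2, dynamin-like GTPases that trap viral components, had 0.23 (SE 0.39) and 0.28 (SE 0.34). RSAD2 (viperin) had 4, 7, 5 and 5 counts in shNC 1, shNC 2, shTPX2 1 and shTPX2 2, and CMPK2, which overlaps it on chromosome 2, had 4, 0, 1 and 3, too few for a test. These 2 genes are listed at or under 0.20 TPM in every library.

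The ISG15 system attaches the ubiquitin-like protein ISG15 to other proteins. ISG15 stood at 63.8 and 31.3 TPM in the shNC libraries and 60.1 and 95.8 in the shTPX2 libraries. In TPM shTPX2 1 lay just under shNC 1, while in CPM with TMM factors the groups did not overlap. The log2 fold change was 0.83 (SE 0.39), with a voom unadjusted p of 0.0626 and an edgeR adjusted p of 0.66. It no longer passed the study's criteria without shNC 2 (0.38) or without shTPX2 2 (0.48).

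HERC5, the ligase that joins ISG15 to its targets, went the other way. It stood at 6.99 and 7.94 TPM in the shNC libraries and 3.70 and 4.41 in the shTPX2 libraries, with no overlap. The log2 fold change was -0.76 (SE 0.25, voom unadjusted p = 0.0204, edgeR adjusted p = 0.579), and at -0.64 it did not pass without shTPX2 1. HERC6, its relative, and USP18, which removes ISG15 and damps receptor signalling, had 0.11 (SE 0.46) and 0.08 (SE 0.24). USP18 shares 18.3% of its stretches with USP41.

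The 3 genes of the PARP and DTX group, PARP9, PARP14 and DTX3L, had 0.35, 0.08 and 0.14 and did not pass. PARP14 encodes an ADP-ribosyltransferase, and DTX3L is a ubiquitin ligase that acts in a complex with PARP9. PARP9 and DTX3L overlap at their ends on chromosome 3, so reads there cannot be told apart without strand.

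Of the other 9 genes, 8 were tested and 1 passed. IFI35, a leucine zipper protein, stood at 30.1 and 22.9 TPM in the shNC libraries and 32.3 and 50.3 in the shTPX2 libraries. The groups did not overlap, but shTPX2 1 and shNC 1 were close. The log2 fold change of 0.76 (SE 0.28, voom unadjusted p = 0.0405, edgeR adjusted p = 0.601) did not pass the study's criteria without shNC 2 (0.55) or without shTPX2 2 (0.43).

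IFI6, a mitochondrial protein that protects cells from apoptosis, stood at 78.1 and 171.4 TPM in the shNC libraries and 50.8 and 228.8 in the shTPX2 libraries. Both the highest and the lowest library belonged to shTPX2, and the log2 fold change was 0.28 (SE 0.66). IFI27, a relative of IFI6, stood at 1.52 and 5.25 TPM in the shNC libraries and 0.56 and 4.10 in the shTPX2 libraries, with a log2 fold change of -0.38 (SE 0.95), the widest error of the set. IFI44, IFI44L, XAF1, SAMD9 and SAMD9L ran from -0.14 to 0.31, and all overlapped.

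Outside IFI16 and a few others, libraries of 1 group differed more than the groups did. In 32 of the 38 tested members (84.2%) the larger difference between libraries of a group exceeded the difference between the group means on the log2 scale, compared with 72.6% of all tested genes. The pattern had a direction in shTPX2, where library 2 was above library 1 in 30 of 38 members (48.1% of all genes), with a median log2 ratio of 0.56 (all genes -0.01). In shNC library 2 was below library 1 in 24 members and above in 14, with a median of -0.13 (all genes 0.00).

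In 20 members shTPX2 2 was above shTPX2 1 while shNC 2 was below shNC 1, as in IFIT1, with log2 ratios of 1.42 and -2.09. In 10 members library 2 was above in both groups. They included IFI27 (2.51 in shTPX2 and 1.39 in shNC), IFI6 (2.12 and 1.09) and IFITM1 (2.05 and 1.60). IFI16 did neither, with ratios of -0.43 and 0.04. On leaving out 1 library, 27 of the 38 members changed sign and 11 did not. Of the latter, IFI16, IFITM2, HERC5 and STAT2 were lower in shTPX2 and 7 were higher. Shares over all tested genes were not computed for the counts in this paragraph, so they describe the members without a background.

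**Figure D3:**
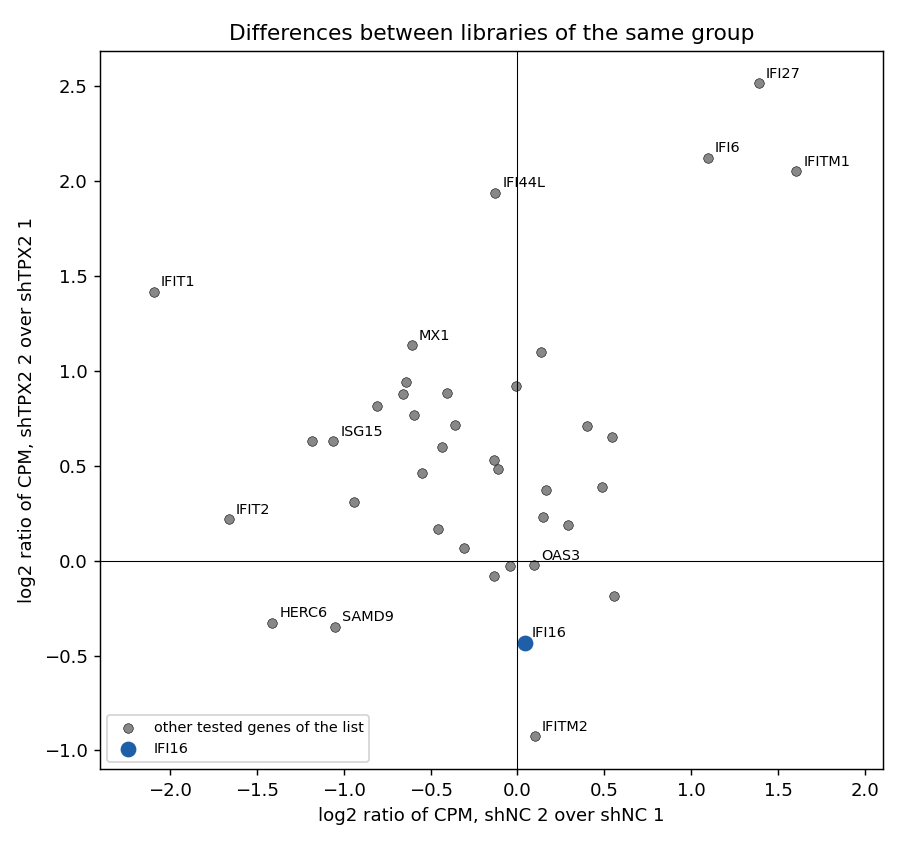
Log2 ratio of CPM between the 2 shTPX2 libraries (vertical axis) against that between the 2 shNC libraries (horizontal axis) for the 38 tested genes, 1 point per gene. Most points lie above the horizontal line, 30 of 38, with IFI27, IFI6 and IFITM1 at the upper right and IFIT1 at the left, while IFI16 (blue) lies near the vertical line at -0.43.

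Within each library IFI16 could be set beside the other members directly. On the log2 CPM scale, which is not corrected for gene length, IFI16 minus the median of the other tested members was -2.01 in shNC 1 and -1.63 in shNC 2. In shTPX2 it was -4.40 in library 1 and -5.66 in library 2. The difference was thus larger in both shTPX2 libraries than in either shNC library. The median of the others itself was 4.28, 3.94, 3.91 and 4.74 in shNC 1, shNC 2, shTPX2 1 and shTPX2 2, with both shNC values between those of shTPX2.

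The genes that sense DNA, make interferon and pass on its signal were read from a separate list of 44, of which 41 were in the table and 31 were tested. At the study's criteria 1 was higher (6.24% of all tested genes), 1 was lower (7.99%) and 29 did not pass. At an adjusted p under 0.05, edgeR (0% of all tested genes), limma voom and DESeq2 (0.790%) each called 0. At an unadjusted p under 0.05 edgeR had 2, where 3.13% of all tested genes were higher and 4.90% lower. The median log2 fold change was 0.01. CGAS, the enzyme that makes the messenger cGAMP on meeting DNA, stood at 18.7 and 19.6 TPM in the shNC libraries and 18.2 and 15.2 in the shTPX2 libraries (log2 fold change -0.07, SE 0.22). STING1, the receptor for cGAMP, listed as TMEM173, stood at 46.2 and 48.2 TPM in the shNC libraries and 33.5 and 45.3 in the shTPX2 libraries (-0.12, SE 0.19). IRF3, the factor that drives interferon genes, stood at 222.6 and 190.2 TPM in the shNC libraries and 197.5 and 223.4 in the shTPX2 libraries (0.13, SE 0.18). None of these partners of IFI16 in DNA sensing passed a threshold.

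IKBKE, a kinase that activates IRF3, stood at 18.9 and 15.1 TPM in the shNC libraries and 27.6 and 21.1 in the shTPX2 libraries. It passed the study's criteria with a log2 fold change of 0.66 (SE 0.23, voom unadjusted p = 0.0293, edgeR adjusted p = 0.587), but not without shNC 2 (0.48) or without shTPX2 1 (0.44). JAK2, a kinase of the interferon gamma receptor, stood at 1.08 and 1.57 TPM in the shNC libraries and 0.47 and 0.40 in the shTPX2 libraries. Its log2 fold change of -1.41 (SE 0.42, voom unadjusted p = 0.0123, edgeR adjusted p = 0.579) ran from -1.60 to -1.18 on leaving out 1 library.

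The receptor and kinase genes of type I interferon did not pass. The receptor chains IFNAR1 and IFNAR2 had log2 fold changes of 0.09 (SE 0.16) and -0.32 (SE 0.34), and the kinases JAK1 and TYK2 had 0.05 (SE 0.25) and 0.07 (SE 0.16). The 8 interferon genes of the table, IFNA1, IFNA2, IFNB1, IFNE, IFNW1, IFNL1, IFNL2 and IFNL3, had at most 10 counts and 0.65 TPM in any library, and none was tested. MNDA, IFNG and IFNK were not analysed here.

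**Figure D4:**
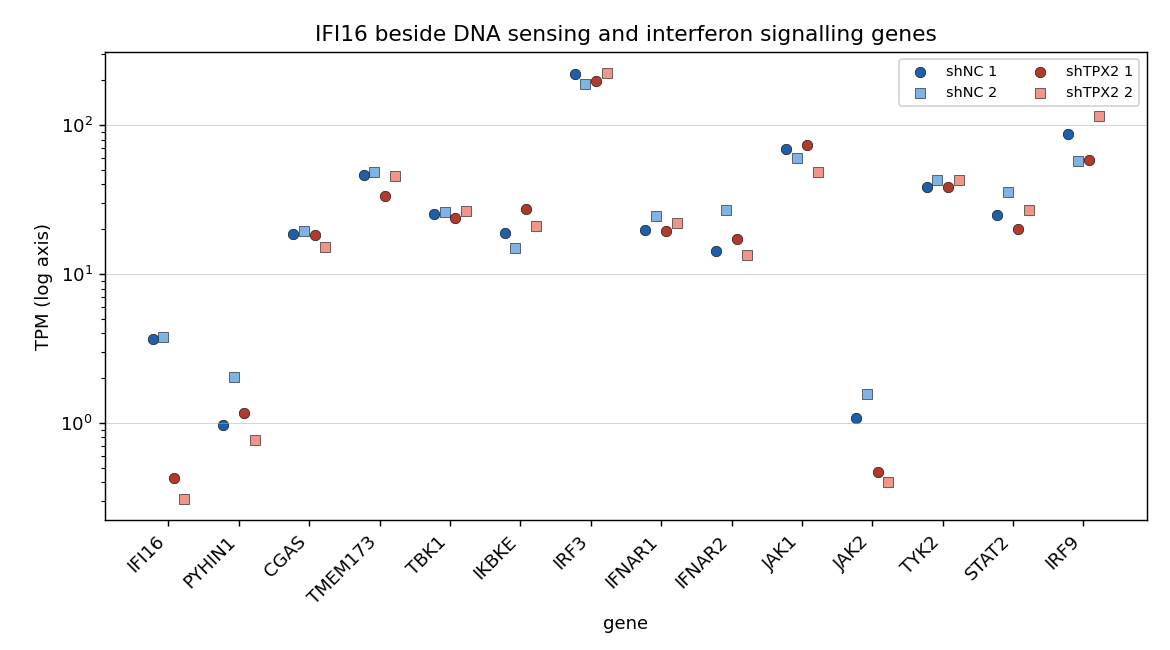
TPM on a log axis of IFI16 and of genes that sense DNA or pass on the interferon signal, with 1 point per library (blue shNC, red shTPX2). IFI16 and JAK2 are the genes whose 2 red points stand clearly below their blue points, while CGAS, TBK1, IRF3, JAK1 and TYK2 keep all 4 points close together.

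The genes most like IFI16 were read by a rule, as the tested genes with the largest fall on the log2 scale at a mean TPM within 2 times that of IFI16. IFI16 was number 6 of the 1855 genes in that range. The first 3 were VWA5A, SLC1A6, a glutamate transporter, and MRC2, a collagen receptor. VWA5A stood at 1.89 and 3.90 TPM in the shNC libraries and 0.05 and 0.03 in the shTPX2 libraries. SLC1A6 stood at 3.58 and 6.97 TPM in the shNC libraries and 0.10 and 0.06 in the shTPX2 libraries. MRC2 stood at 1.23 and 3.62 TPM in the shNC libraries and 0.23 and 0.18 in the shTPX2 libraries. In these 3 genes shNC 2 was well above shNC 1, unlike in IFI16, whose shNC libraries were 3.65 and 3.81 TPM.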

How the data were processed

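RNA of 4 PC9 libraries (2 shNC, 2 shTPX2) was analysed. Groups and library numbers came from the sample labels. By the study's methods, the authors ran SOAPnuke for cleaning, HISAT2 or Bowtie2 for alignment and RSEM or StringTie for quantification, while the submitters' processing notes name GRCh38, HISAT2, featureCounts and DESeq2, so the counter is uncertain. The annotation and strand setting are not given in the sources used here. The deposited values are an expected count for each gene, not normalized, and the authors' TPM, which they scaled for length and depth and which serve here as levels per library. Deposited FPKM values were not used. The deposited table also holds the authors' mean TPM per group, which is not the mean of these 2 libraries and entered no test.

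Expected counts were rounded to 0 decimals and filtered with filterByExpr, leaving 14048 of 18134 genes. TMM factors ran from 0.959 to 1.05 and the common dispersion was 0.0485, so for all but low genes the spread between libraries limited precision. The main test was the quasi-likelihood test of edgeR 4.0.16 (R 4.3.3) with Benjamini-Hochberg adjustment over all tested genes. The study's criteria (unadjusted p not above 0.1 and an absolute log2 fold change not under 0.3) used limma 3.58.1 and voom. The log base, the unadjusted p and the absolute value are assumed, since the methods name none of them. DESeq2 1.42.0, other size factors, other filters, the replicate block and leaving out each library were alternatives. With 1 library left in a group, the lone library is assumed to vary like the other group. The standard error is the log2 fold change over the square root of the F statistic. The scripts were tested on simulated data.

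The members and lists were chosen with earlier results of these data known. Values in every library are given for IFI16, for members past an unadjusted edgeR p of 0.05 or the study's criteria and for the 6 members with the highest mean TPM and for members with 3 counts or fewer in both libraries of 1 group only (CMPK2). The same holds for pathway genes past either criterion. The values of 1 marker and 1 pathway gene are not reported here. IFIT1, IFI27, RSAD2 and the library ratios were chosen after their values were seen. Gene positions and promoter windows are from RefSeq, GRCh38.p14, in which DDX58 is RIGI. IFIT2, OAS2, OASL, MX2, IFITM2, IRF7 and USP18 had no window. Stretches of 75 bases were compared over GENCODE release 29 transcripts.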

Additional observations from a re-analysis of the deposited data

Results flagged for a closer look

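The deposited table holds a mean TPM per group that the authors computed, and for IFI16 it is far from the libraries. The authors' mean for IFI16 was 59.1 TPM in shNC and 120.7 TPM in shTPX2, above all 4 libraries, which ran from 0.31 to 3.81 TPM. It was singled out because these columns entered no comparison. Over all genes the authors' mean equalled the mean of the 2 libraries, within 0.01 TPM, for 7.85% of genes in shNC and 6.85% in shTPX2. Multiplied by 3, the shNC means were whole hundredths of a TPM for 100% of genes, and multiplied by 4 the shTPX2 means were, within 0.02 of a hundredth. The authors' mean lay above both libraries in 22 of the 40 members for shNC and 32 for shTPX2. It was higher in shTPX2 than in shNC for 37 of the 40 members, compared with 20 for the means of the 2 libraries. Shares over all genes were not computed for these member counts, so they cannot be read as a result about interferon genes. For TPX2 the authors' mean was 138.5 TPM in shNC and 64.5 TPM in shTPX2, lower in shTPX2 as in the libraries. IFI27 had an authors' mean of 61.0 TPM in shNC and 424 TPM in shTPX2, where its libraries ran from 0.56 to 5.25 TPM. Multiplied by 2, only 35.1% of the shNC means and 51.5% of the shTPX2 means were whole hundredths. Means over 3 shNC and 4 shTPX2 libraries would take this form, which is more libraries than the 2 per group with values here. Which libraries entered these columns is not given in the sources used here, and they were not analysed further. The direction of these means therefore cannot be set against that of the libraries.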

How the results depend on the processing

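IFI16 passed an adjusted p of 0.05 with DESeq2 alone (-3.19), which made 2 member calls, IFI16 and IFITM2, where edgeR made 0. HERC5, IFI35, ISG15 and IKBKE each lost their call at the study's criteria without 1 library or another, in 7 fits in all. Requiring at least 10 counts in every library removed IFI16 and gave no value for it. With adjusted in place of unadjusted p at the study's criteria, 0 members were higher and 0 lower, and likewise 0 and 0 pathway genes. Without any filter on low counts, 2 pathway genes were lower. Leaving out 1 library gave 1 to 13 members higher, with 13 without shTPX2 1, 9 without shNC 1 and 1 without either shNC 2 or shTPX2 2. Members lower ran from 2 to 6, with 6 without shTPX2 2. Pathway genes ran from 0 to 3 higher (0 without shTPX2 1, 3 without shNC 1 and 2 without shNC 2 or shTPX2 2) and from 1 to 2 lower (2 without shNC 1). TPX2 ran from -1.21 without shNC 1 to -0.24 without shNC 2, IFI16 from -3.44 to -2.94, and the median of the other members from -0.12 without shTPX2 2 to 0.47 without shTPX2 1. The cause of these changes was not tested. The share of all tested genes that passed was not computed for the fits that left out 1 library. The shares given for the study's criteria belong to the fit of all libraries. The member and pathway counts without 1 library therefore have no background, and cannot be read as a result about interferon genes. The groups share library numbers 1 and 2, but with 2 pairs and a correlation of deviations of 0.18 over all tested genes, the numbers were not taken to pair the libraries. With the replicate block, IFI16 was at -3.18 (edgeR adjusted p = 0.352), TPX2 at -0.73, 3 members were higher and 3 lower, and 3 pathway genes were higher. At 9 to 13 reads in shTPX2, counting error alone limits how precisely the level of IFI16 there is known.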

Other observations

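Some genes outside the set that also answer to interferon were low in shTPX2, and were chosen for this after their values were seen. They do not show a fall of such genes in general. Of the tested pathway genes above, 16 had a log2 fold change above 0 and 15 below. ZBP1, a sensor of Z-form nucleic acid that starts cell death, was listed at 0.36 TPM in both shNC libraries and at 0.06 and 0.11 TPM in shTPX2, too low for a test. HLA-DRB1, a class II antigen presentation gene that interferon gamma induces, stood at 1.68 and 5.20 TPM in the shNC libraries and 0.38 and 0.16 in the shTPX2 libraries (log2 fold change -3.48, SE 0.79, edgeR adjusted p = 0.470). HLA-DQB1, of the same class, stood at 2.30 and 10.5 TPM in the shNC libraries and 0.78 and 0.70 in the shTPX2 libraries (-2.96, SE 0.77, edgeR adjusted p = 0.579). In both HLA genes shNC 2 was the highest library by far. Neither passed an edgeR adjusted p of 0.05, but edgeR called 0 of all 14048 tested genes there, so this does not set them apart. Results of the other tests are not given for them. HLA genes have near-identical relatives, so their levels are uncertain.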
